A study of Homo sapiens with 4 samples.

Results

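The comparison set the 3 arrays of stimulated cells against the 1 array of solvent-treated cells, and took for each gene the smallest of its 3 differences where all had the same direction. All 4 arrays of the series enter it. KYSE410 is a human cell line derived from a squamous carcinoma of the oesophagus and was grown with fetal bovine serum. The cells received PBS (phosphate-buffered saline, as solvent control), TNFα (tumour necrosis factor α), IL1β (interleukin 1β) or LPS (lipopolysaccharide of Gram-negative bacteria), each for 24 h. The labels name no dose. RNA of each condition was measured on 1 single-colour NimbleGen array, which gave an RMA intensity (a background-corrected and between-array equalised brightness) for 45033 probe sets, and 17185 genes could be named. A gene took its brightest probe set. It counts as shared higher or shared lower where all 3 treated arrays differed from PBS at least 2-fold in that direction and the brighter value of each pair reached a floor of 260 (8.02 on the log2 scale, the median gene).

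Of 8929 genes at the floor on the PBS array or on all 3 treated arrays, 83 (0.93%) were shared higher and 108 (1.21%) shared lower. In each single comparison with PBS, 9419, 9427 and 9675 genes were tested for TNFα, IL1β and LPS. Of these 3.37%, 3.13% and 8.83% were higher and 3.4%, 3.57% and 7.42% lower, the shared genes included. The treated arrays received different agents and are not replicates of a group, so no test was made and no difference has an error. All 3 differences also contain the same PBS array. A response common to the stimuli and a deviation of that array alone cannot be told apart here, for any gene below. In RNA from a whole culture, a change in the number of cells that carry a transcript and a change of its amount per cell cannot be told apart either.

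TNFα and IL1β signal through their own receptors, and LPS through TLR4 with its co-receptors. The pathways meet at the IκB kinase complex, which releases NF-κB, a family of transcription factors kept in the cytoplasm by inhibitors such as NFKBIA. Chemokines, cytokines, adhesion molecules and the feedback inhibitors of NF-κB itself are among its well-known targets in epithelial cells. Many of these responses are early and transient.

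The promoters of 5 inflammatory genes that were higher with every stimulus are printed, and each holds a sequence of the kind NF-κB binds. CXCL8, CXCL2 and IL6 were planned, as were CCL5 and CDH1, for which no promoter sequence was available. Each is the 250 bases before the transcript start of RefSeq (GRCh38.p14), and capitals mark matches to GGNNTTNCC on either strand and, in ICAM1, the E-box CAGGTG as well. CXCL8 lies at chr4:73740319-73740568, plus strand, CXCL2 at chr4:74099196-74099445, minus strand, IL6 at chr7:22726950-22727199, plus strand, ICAM1 at chr19:10270870-10271119, plus strand and IRF1 at chr5:132490774-132491023, minus strand. ICAM1 and IRF1 were chosen for printing after the values had been seen.
CXCL8: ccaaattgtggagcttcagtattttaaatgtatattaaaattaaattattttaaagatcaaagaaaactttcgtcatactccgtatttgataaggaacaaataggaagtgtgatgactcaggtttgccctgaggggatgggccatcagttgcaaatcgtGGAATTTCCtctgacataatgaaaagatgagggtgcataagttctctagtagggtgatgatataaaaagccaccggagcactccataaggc
CXCL2: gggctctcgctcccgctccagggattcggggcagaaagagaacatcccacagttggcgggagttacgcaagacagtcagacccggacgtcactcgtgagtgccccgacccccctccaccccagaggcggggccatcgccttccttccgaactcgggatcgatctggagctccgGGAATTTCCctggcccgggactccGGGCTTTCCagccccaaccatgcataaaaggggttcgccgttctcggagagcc
IL6: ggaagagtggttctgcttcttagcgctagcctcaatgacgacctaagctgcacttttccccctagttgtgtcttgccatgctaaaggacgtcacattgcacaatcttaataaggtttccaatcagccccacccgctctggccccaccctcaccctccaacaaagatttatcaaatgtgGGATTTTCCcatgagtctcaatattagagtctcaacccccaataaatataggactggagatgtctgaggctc
ICAM1: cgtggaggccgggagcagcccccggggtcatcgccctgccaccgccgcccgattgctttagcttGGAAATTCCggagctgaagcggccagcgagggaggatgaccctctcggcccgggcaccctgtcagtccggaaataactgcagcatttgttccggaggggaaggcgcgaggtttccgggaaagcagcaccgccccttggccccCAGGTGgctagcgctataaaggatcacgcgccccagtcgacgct
IRF1: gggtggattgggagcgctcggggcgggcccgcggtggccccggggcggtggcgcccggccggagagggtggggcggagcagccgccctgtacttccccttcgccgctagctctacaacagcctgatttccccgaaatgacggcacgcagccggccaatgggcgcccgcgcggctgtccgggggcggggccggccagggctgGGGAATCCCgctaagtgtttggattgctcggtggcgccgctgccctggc

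The matches to GGNNTTNCC began 91 bases before the start site in CXCL8, 77 and 53 in CXCL2, 72 in IL6, 186 in ICAM1 and 49 in IRF1. RefSeq start regions, here 250 bases before to 50 bases after the start, were found for 64 of the 83 shared higher genes. Of their 96 start regions 27 (28.1%) held a match, against 19% of 10500 start regions of all genes tested and 17.1% of 35116 in the table. For 75 of the 108 shared lower genes it was 24 of 109 start regions (22%). The E-box CAGGTG, a sequence bound by SNAI1 and related repressors, was in 16 of the 96 (16.7%) and 25 of the 109 (22.9%), against 18.5% for all genes tested. These shares describe letters in a window and were not tested, and genes with several start regions count more than once.

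Secreted mediators stood among the shared higher genes. CXCL8, the neutrophil chemokine interleukin 8, had intensities of 394 with PBS and 4547, 2051 and 3889 with TNFα, IL1β and LPS. CXCL2, which acts on the same receptor, CXCR2, had 249, 2215, 1746 and 2311 in that order. The nearest treated array, IL1β for both, lay 5.20-fold above PBS for CXCL8 and 7.01-fold for CXCL2, and this smallest of the 3 folds is called the smallest fold below. CCL5, which draws T cells and monocytes, had 196 with PBS and 1195, 1118 and 966 with TNFα, IL1β and LPS, close together at a smallest fold of 4.94. Of the 19 measured chemokines on the list these 3 were shared higher and none was shared lower, and 5 of the 19 were tested at all. Over all 17185 genes 0.48% were shared higher and 0.63% shared lower, the shares to set beside each list count below. The lists do not hold every gene of a family, and some shared relatives outside a list are named beside it, chosen after their values were seen. CCL3, a chemokine for monocytes outside the list, was shared higher as well, with 136 against 862, 466 and 678. The list's median log2 differences were -0.10, -0.13 and 0.41 with TNFα, IL1β and LPS, against -0.03, -0.03 and 0.02 over all genes.

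IL6, the cytokine that drives the acute phase response, had 308 with PBS and 1886, 1427 and 6426 with TNFα, IL1β and LPS. All 3 stimuli lay above PBS, but the treated arrays themselves spanned 2.17 log2, among the widest of the shared genes. IL1B, the gene of one of the stimuli, was more even, at 213 with PBS against 691, 760 and 904. IL32, a cytokine of epithelial and lymphoid cells, had 440 with PBS against 977, 951 and 1230, with a smallest fold of 2.16. Its 3 other probe sets were higher on every treated array as well, by at least 0.97, 0.50 and 0.43 log2. In the opposite direction, IL1RN, the antagonist that blocks the IL1 receptor, had 802 with PBS and 206, 197 and 358 with the stimuli. BMP4, a bone morphogenetic protein, had 1069 with PBS and 209, 183 and 277. Of 38 cytokines and growth factors 3 were thus shared higher and 2 shared lower, with list medians of -0.05, -0.06 and 0.30.

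**Figure D1:**
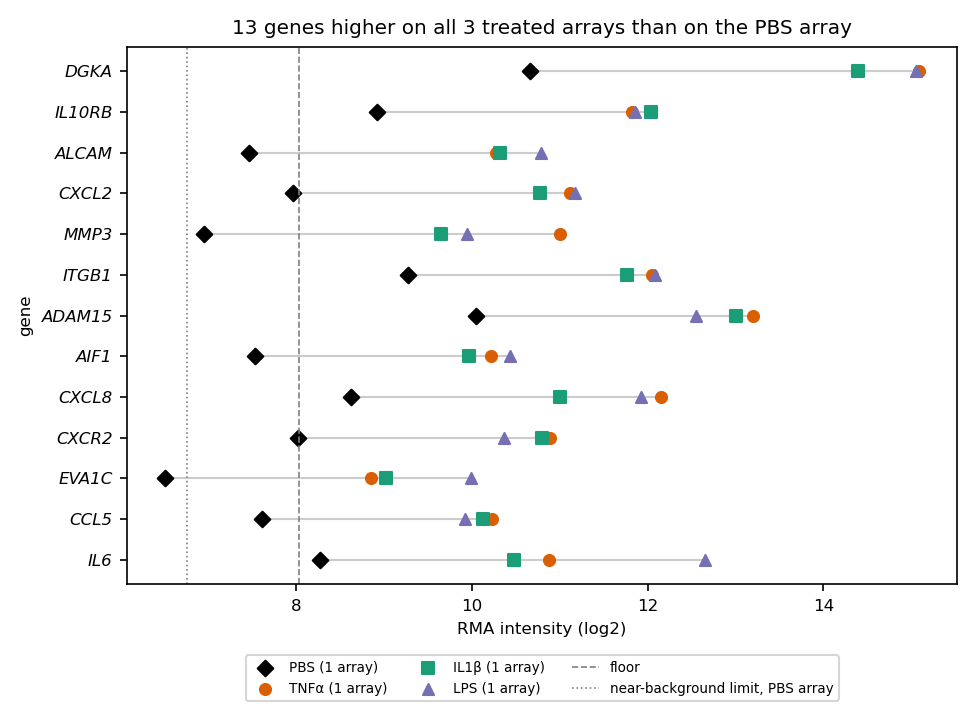
RMA intensity on the log2 scale (horizontal axis) of 13 of the shared higher genes that led by smallest difference, with 1 symbol per array. The PBS value (black diamond) is the lowest in each row, and the 3 stimuli lie close together for IL10RB and ITGB1 and farther apart for IL6 and MMP3. The dashed line is the floor and the dotted line the near-background limit of the PBS array.

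Of the NF-κB pathway genes, IRAK1, TNIP1, TNFAIP8 and TRAF2 were shared higher, while NFKBIA and TNFAIP3 were not. IRAK1, the kinase that IL1 and TLR receptors recruit through MYD88, had 3089 with PBS and 8941, 8685 and 9025 with TNFα, IL1β and LPS. The 3 treated values lay within 0.06 log2 of each other, the tightest of all shared higher genes. TNIP1, a partner of the ubiquitin-editing protein A20, was nearly as even, with 1319 against 4359, 4347 and 3997. TNFAIP8, a TNF-induced survival protein, had 1041 against 3080, 2575 and 2924. TRAF2, the adaptor of TNF receptors, had 1287 with PBS and 10052, 3730 and 4001 with TNFα, IL1β and LPS, so that TNFα stood above the other stimuli.

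By contrast NFKBIA had 5607 with PBS and 4463, 4880 and 14970 with TNFα, IL1β and LPS, which is a different direction for the cytokines and for LPS. TNFAIP3, which encodes A20, had 703, 773, 763 and 5316, so only LPS stood apart. The same was true of the chemokines CXCL1 (525, 427, 449 and 1467) and CCL20 (86.4, 71.4, 59.6 and 1724, the first 3 near background). SOD2, the mitochondrial superoxide dismutase, was higher with each stimulus but under 2-fold, at 1640, 2877, 2478 and 2203. Of 29 NF-κB subunits, inhibitors and feedback genes 3 were shared higher and none shared lower, with medians of 0.01, -0.09 and 0.43. Of 32 receptors and adaptors for TNF, IL1 and TLR4, TRAF2 and IRAK1 were shared higher and 1 was shared lower. That gene was TNFRSF1B, the second TNF receptor, with 1226 with PBS and 348, 213 and 294 with the stimuli. TNFRSF21, a death receptor outside the list, was shared lower too, with 368 against 162, 71.4 and 175, near background with IL1β.

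Interferon-stimulated genes and their regulators had 6 shared higher members of 36 measured (16.7%) and none shared lower, against 0.48% of all 17185 genes shared higher. This was the highest count of the 25 pathway lists, while the list of epithelial-mesenchymal transition had the higher share, with 4 of 23 (17.4%). IRF1, a transcription factor of interferon responses, had 147 with PBS and 1023, 495 and 704 with TNFα, IL1β and LPS. IRF2, its relative that often opposes it, had 195 against 840, 1164 and 1116. The antiviral protein genes IFIT2 (292 against 627, 959 and 1044), IFIT3 (268 against 737, 562 and 1063) and IFI6 (274 against 873, 622 and 583) were higher by smaller amounts. GBP2, a guanylate-binding protein, was near background with PBS (86.6) and had 300.3, 387 and 436, at least 2.78-fold higher. Outside the list, the interferon-inducible genes IFI16 (1550 against 7380, 7473 and 5134) and IFI30 (3760.3 against 10635, 9364 and 13436) were shared higher as well. The list's median was 0.62, 0.11 and 0.31 with TNFα, IL1β and LPS, so the list as a whole was not alike across stimuli. MX1, for example, had 236 with PBS and 781, 233 and 157 with TNFα, IL1β and LPS.

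In the class I presentation list, TAP1, a peptide transporter of the endoplasmic reticulum, had 666 with PBS and 2596, 2877 and 5369 with the stimuli. PSMB8, an immunoproteasome subunit, had 197 against 509, 997 and 413 in its brightest probe set. Its other probe set gave 466 with PBS and 155, 122 and 864, which is lower with both cytokines. The remaining 17 of 19 members were neither, and the medians were -0.02, -0.18 and 0.30.

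Receptors of the interferon and interleukin 10 family appeared as well, in a list formed after the values had been seen. IL10RB, the shared chain of receptors for interleukin 10, interleukin 22 and type III interferons, had 485 with PBS and 3627, 4220 and 3715 with TNFα, IL1β and LPS. IFNGR2, a chain of the interferon γ receptor, had 618 against 2306, 2692 and 2956, and its partner IFNGR1 had 213 against 613, 591 and 2009. The other 7 of the 10 members measured were neither, and the list's medians were 0.15, 0.07 and 0.78. Of the chemokine receptors, also gathered afterwards, CXCR2 (258 with PBS against 1888, 1778 and 1319) and CXCR4 (185 against 454, 734 and 1235) were 2 of 18. TNFSF9 (243 against 1387, 948 and 1283) and TNFSF4 (171 against 702, 502 and 840), ligands that costimulate T cells, were 2 of 17 TNF superfamily ligands, a list formed afterwards too.

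Signalling from cytokine receptors through JAK and STAT proteins is restrained by SOCS3, which binds the receptor and the kinase. SOCS3 had 934 with PBS and 163, 170.4 and 225 on the treated arrays, with a smallest fold of 4.16. PIAS3, an inhibitor of STAT3, had 739 against 131, 232 and 299. STAT5A, a transcription factor of the same pathway, was higher, with 389 against 4003, 900 and 2064. From the lowest to the highest treated array STAT5A spanned 2.15 log2 and SOCS3 0.46. The other 18 of 21 members were neither.

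Among secreted defence proteins, C1R, a protease of the classical complement pathway, had 159 with PBS and 427, 405 and 422 with the stimuli. SERPING1, the inhibitor of that protease, had 896 with PBS and 148, 265 and 258. The enzyme and its inhibitor thus differed in opposite directions on all 3 treated arrays. PTX3, a pentraxin that binds microbes, had 443 against 1811, 942 and 1898. Of the 33 acute phase, complement and antimicrobial genes listed these were the 2 shared higher and the 1 shared lower. Outside the list, the complement gene C4B, whose probes may also read its near-identical copy, was shared higher with 124.6 against 436, 407 and 388. Of the peptidoglycan recognition proteins, PGLYRP1 was shared higher (168 against 718, 1047 and 537) and PGLYRP2 lower (929 against 195, 203 and 305). Without the LPS array 5 of the 33 listed were higher, against 149 of all 17185 genes. S100A8, S100A9 and LTF were the additions, 2-fold higher with both cytokines but not with LPS. S100A8, an alarmin, had 58.8 with PBS and 5440, 1782 and 95.5 with TNFα, IL1β and LPS, near background with PBS and with LPS.

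Matrix proteases gave 4 shared higher members of 29 and 1 shared lower. MMP3, stromelysin, had 124 with PBS and 2055, 802 and 988 with TNFα, IL1β and LPS, with a smallest fold of 6.48. MMP14, a membrane-anchored metalloproteinase, had 140 against 1432, 436 and 772, and both genes were highest with TNFα. ADAM17, the sheddase that releases TNF from the cell surface, was just past the limit, with 1082 against 3117, 2209 and 4359. ADAM15, a related membrane protease outside the list, had 1059 against 9375, 8230 and 5983. TIMP2, a metalloproteinase inhibitor that also takes part in pro-MMP2 activation by MMP14, had 1640 with PBS and 407, 544 and 314. The list medians were -0.02, 0.16 and 0.61.

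Genes of epithelial-mesenchymal transition, in which epithelial cells lose E-cadherin junctions, were shared in both directions. CDH1, which encodes E-cadherin, had 1209 with PBS and 232, 287 and 284 with TNFα, IL1β and LPS. CDH2, N-cadherin, had 302 against 1153, 852 and 1367. SNAI1, a repressor of CDH1, had 505 against 2385, 2338 and 3378, and TWIST1, another transcription factor of the transition, had 551 against 1291, 1955 and 2229. TNC, the matrix protein tenascin C, had 951 with PBS and 141, 160 and 251. This direction is opposite to that of CDH2, although both are often counted as mesenchymal. VIM, another mesenchymal gene on the list, was at least 2-fold lower with TNFα and with LPS but not with IL1β, so it was not shared. In all 4 of 23 members were shared higher and 2 shared lower, and the other 17 were neither. The medians were 0.12, 0.12 and -0.26.

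Adhesion receptors were also shared in both directions. ITGB1, the β1 integrin subunit that pairs with many α subunits, had 616 with PBS and 4252, 3486 and 4330 with the stimuli. ITGA6, the laminin-binding α6 subunit, had 800.4 with PBS and 275, 177 and 290. ALCAM, an adhesion molecule of activated leukocytes and epithelia, had 176 against 1238, 1281 and 1768. ICAM1, which binds leukocyte integrins, had 178 against 405, 533 and 1276, so that LPS gave the highest value. Of the 31 integrins, laminins and adhesion molecules listed 3 were shared higher and 1 shared lower. The β2 integrin gene ITGB2, outside the list, was shared lower too, with 894 against 369, 164 and 269. None of 23 desmosome and tight junction genes and none of 31 squamous differentiation genes was shared in either direction. Lists of this size without a member are near the share over all genes (0.48% higher and 0.63% lower). Of 18 basal squamous genes only ITGA6 was shared.

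The gene with the largest shared difference was DGKA, a kinase that turns the second messenger diacylglycerol into phosphatidic acid. Its intensity was 1619 with PBS, 34915 with TNFα, 21538 with IL1β and 33922 after LPS, with a smallest fold of 13.3. HIF1A, the oxygen-regulated transcription factor subunit, had 900 against 4713, 3139 and 5907. The other HIF1A probe set gave 1066 with PBS and 1026, 1118 and 1166, with almost no difference. HIF1A was the only 1 of 25 hypoxia and glycolysis genes, and of 24 oxidative stress genes 1 was shared higher and none shared lower. AIF1, a calcium-binding protein of macrophages, had 185 against 1193, 998 and 1386, and its other probe set 199 against 483, 347 and 296. EVA1C, a transmembrane protein, was near background with PBS (90.8) and had 461, 521 and 1017.

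The leading shared lower genes had varied roles. RNF2, a ubiquitin ligase of the Polycomb complex that marks histone H2A, had 1986 with PBS and 291, 353 and 335 with TNFα, IL1β and LPS. KAT14, a subunit of a histone acetyltransferase complex, had 1033 against 212, 135 and 199. MSH5, a protein of meiotic recombination, had 1296 against 262, 243 and 299.7.

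Feedback targets of Wnt signalling, a list also formed after the values had been seen, had 3 of 14 measured members shared lower and none shared higher. AXIN2, a scaffold of the β-catenin destruction complex, had 1467 with PBS and 219.6, 271 and 212 with the stimuli. NKD1, which binds Dishevelled, had 1041 against 312, 326 and 360.3, and its relative NKD2 had 289.5 against 100.3, 69.6 and 53. The 3 treated NKD2 values were near background. NOTUM, a secreted inactivator of Wnt proteins, had 691 against 388, 301 and 183 and missed the limit with TNFα. AXIN1, which is not a feedback target, had 1135 against 1399.8, 1636 and 1638. The medians of the 14 were -0.77, -1.06 and -0.62, and the list was chosen for its lower members. Of 24 BMP and activin ligands, receptors and related genes, chosen likewise, 5 were shared lower. They were BMP4, BMP5 (856 against 281, 296 and 368), INHBB (269 against 49, 104 and 120.3), ACVR2B and LTBP3, the last neither a ligand nor a receptor. INHBB was near background with TNFα and IL1β.

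**Figure D2:**
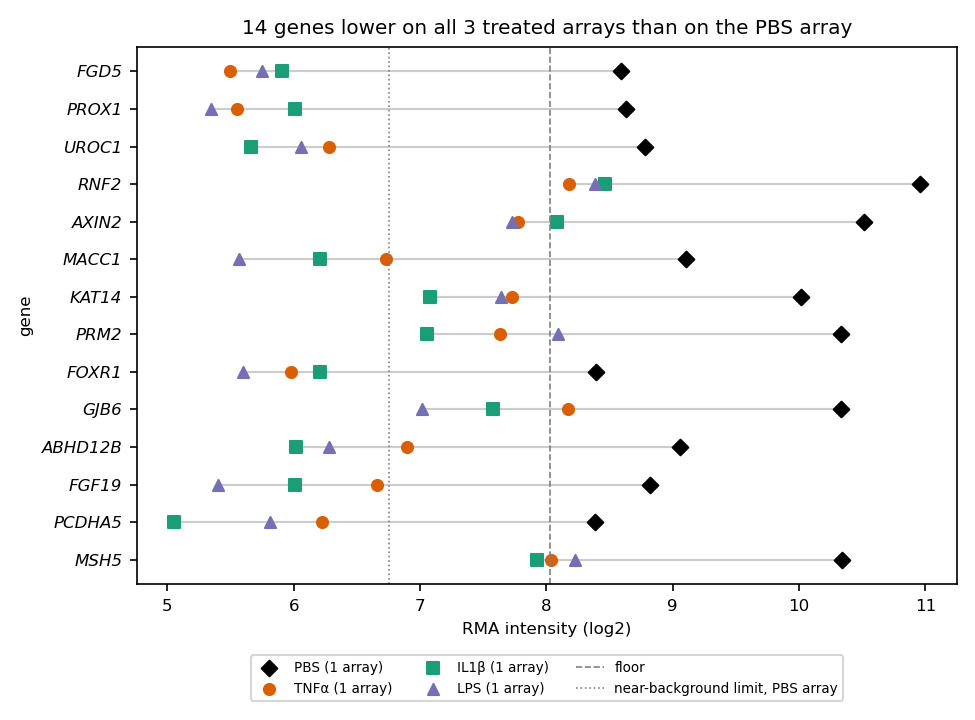
RMA intensity on the log2 scale (horizontal axis) of 14 of the shared lower genes that led by smallest difference, with 1 symbol per array. The PBS value is the highest in each row, and FGD5, PROX1, UROC1, FOXR1, PCDHA5, MACC1 and FGF19 have all 3 treated values left of the near-background limit (dotted line).

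Of the other leading lower genes, GJB6, the gap junction protein connexin 30, had 1291 with PBS and 288, 191 and 129 with the stimuli. PRM2, a sperm protamine, had 1289 against 198, 133 and 273. FGD5, PROX1, UROC1, FOXR1, PCDHA5, MACC1 and FGF19 had between 334 and 550.5 with PBS and were near background on all 3 treated arrays, so their folds are bounds, of at least 3.41, 3.51, 3.90, 2.97, 2.96, 4.88 and 3.999. MACC1, a gene linked to metastasis of colon cancer, had 550.5 with PBS and 106, 73.8 and 47.4, and FGF19, a growth factor that signals in bile acid control, had 451 against 101, 64.3 and 42.2. ABHD12B had 533 against 119, 64.6 and 77.8, near background with IL1β and LPS. SLC38A5, a glutamine transporter, had 1507 with PBS and 92.8, 169 and 446 with TNFα, IL1β and LPS, near background with TNFα. SLC43A1, a carrier of large neutral amino acids, had 558 against 193, 142 and 172, and these were 2 of 20 amino acid transporters. SPRY4, an inhibitor of MAP kinase signalling, had 616.5 against 298.6, 136 and 133, the only 1 of 34 immediate early and MAP kinase feedback genes.

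**Figure D3:**
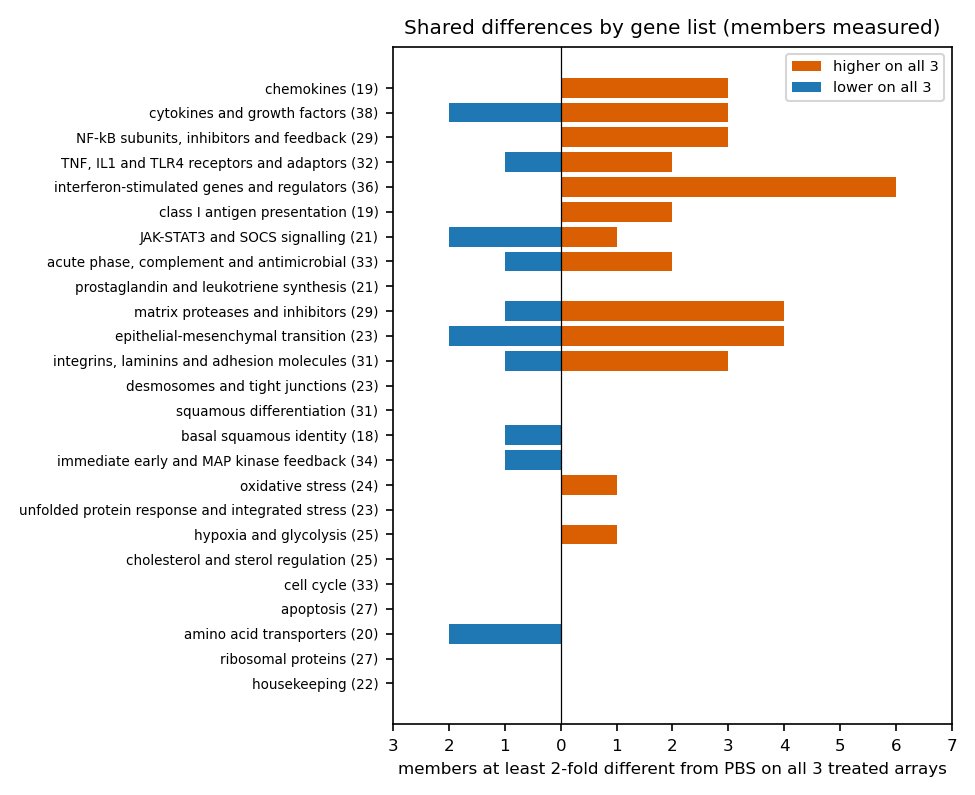
Members of each of the 25 pathway lists that differed from PBS at least 2-fold on all 3 treated arrays, to the right for higher and to the left for lower, with the number measured in parentheses. Interferon-stimulated genes have 6 members to the right, and the ribosomal, housekeeping, apoptosis, cell cycle, cholesterol, unfolded protein, prostaglandin, junction and squamous differentiation lists have none on either side.

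No member of 33 cell cycle genes, 27 apoptosis genes, 25 cholesterol genes, 23 unfolded protein genes, 21 prostaglandin and leukotriene genes, 27 ribosomal proteins or 22 housekeeping genes on the lists was shared in either direction. With 0.48% of all genes shared higher and 0.63% shared lower, lists of this size without a member are near that share. RPL18, a ribosomal protein gene outside the ribosomal list, was shared lower, with 16611 with PBS and 5361, 7821 and 5480 with the stimuli. Housekeeping genes had median log2 differences of -0.20, -0.33 and -0.15 for TNFα, IL1β and LPS. Outside the lists, CHEK1, a checkpoint kinase, is an example chosen afterwards, with 1827 against 891, 902 and 891. Its 3 treated values lay within 0.02 log2, the tightest of all shared genes.

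The size of the shared differences was modest. The median of the smallest difference was 1.495 log2 for the 83 higher genes and 1.466 for the 108 lower ones. With folds bounded near background, 36 higher and 42 lower genes were at least 3-fold different, 18 and 13 at least 4-fold, and 1 and 0 at least 8-fold. The PBS value was below the floor in 41 of the 83 higher genes and near background in 2, and all 3 treated values were below the floor in 56 of the 108 lower genes and near background in 12. The median PBS intensity was 268 for the higher genes, 657 for the lower genes and 744 for all genes tested. The PBS value thus lay lower among the genes called higher, as the choice of the members fixes in part.

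The 3 treated arrays lay apart from each other by a median of 0.61 log2 for the higher genes and 0.64 for the lower ones, against 0.58 for all genes tested. The range was 1 log2 or more in 25 and 26 genes, with S100P (S100 calcium-binding protein P, 2.38), SLC38A5 (2.27) and IL6 (2.17) at the top. By size, LPS gave the largest of the 3 differences in 42 of the 83 higher genes, TNFα in 25 and IL1β in 16, and over all 8929 genes tested LPS likewise gave the largest in 4610, TNFα in 2179 and IL1β in 2140. Among the 108 lower genes IL1β was the largest in 43, TNFα in 34 and LPS in 31. The 83 genes were 26.2% of those higher with TNFα, 28.1% of those with IL1β and 9.72% of those with LPS, and the 108 were 33.8%, 32% and 15% of the lower ones. These comparisons share the PBS array, and the counts are those the rule fixes.

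**Figure D4:**
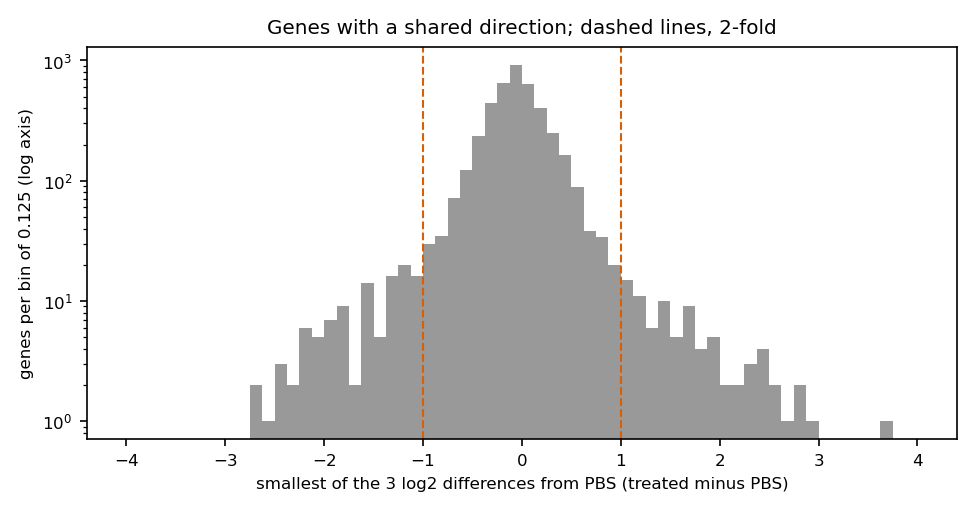
Number of tested genes (log axis) by the smallest of the 3 log2 differences from PBS, for genes with the same direction on all 3 treated arrays. The dashed lines mark 2-fold, beyond which lie 108 genes on the left and 83 on the right, and the bar farthest right is DGKA at 3.73.

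Genes at the limit show how narrow it is. Just inside were SP2 (smallest log2 difference 1.003, with 200.8 against 612, 543 and 403), ADAM17 (1.03) and RAB11FIP5 (1.04), and just outside FAF2 (0.999), the phosphatase DUSP1 (0.98) and GSTM1 (0.97). On the lower side KRT81 (-1.01), CRMP1 (-1.02) and CHEK1 (-1.02) were inside, and RLIM (-0.99), TMEM163 (-0.98) and SULF2 (-0.98) outside.

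A second probe set for the same gene is the only repeat measurement on these arrays, and it comes from the same RNA. Of the 83 higher genes 7 had other probe sets and of the 108 lower genes 10. Among the 10 other sets of higher genes 5 had the same direction on all 3 treated arrays, and among the 12 of lower genes 4 did. None of these 22 sets was at least 2-fold different on all 3 arrays. For genes called higher 9 of the 10 sets reached the floor on some array, but for genes called lower only 2 of the 12 did, where a difference is hard to see. IL32 and AIF1 repeated their direction, and HIF1A, PSMB8 and BNIP1 did not. Over the remaining genes, 76 higher and 98 lower, each difference rests on 1 probe set, usually of 3 probes.

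**Figure D5:**
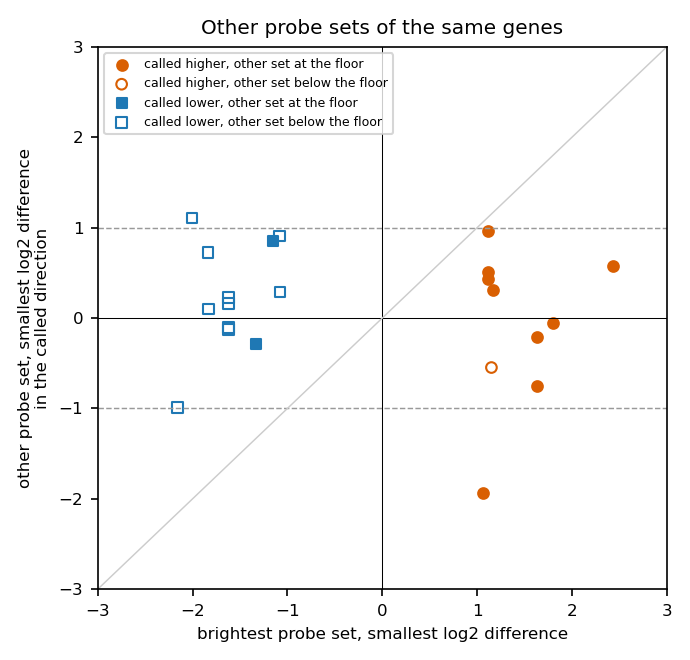
Smallest log2 difference from PBS in the called direction, for the brightest probe set of a gene (horizontal axis) and each of its other probe sets (vertical axis). Filled symbols are sets that reached the floor on some array. The 22 sets lie nearer to 0 than the diagonal would place them, or on the other side of 0, and no set passes the dashed 2-fold line in the called direction.

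The arrays differed in other ways that touch these results. The LPS array stood apart, with a Pearson correlation over genes of 0.929 with PBS, against 0.956 for TNFα and 0.957 for IL1β, and 0.969 between the cytokines. Without it, 149 genes were higher and 171 lower with both cytokines, among them all 83 and 108, as fewer arrays had to share a difference. The interferon-stimulated list then had 7 members in place of 6 (SP110 in addition) and the NF-κB list 4 in place of 3 (BCL2A1 in addition), while the chemokine, protease, transition and adhesion lists had the same members. The 14 epithelial and squamous markers were all at the floor on every array but TNFα, where CDH1 was below it, and their summed intensity was between 199512 and 260031.

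Transcripts of other cell types were present and varied between arrays. The 18 leukocyte markers summed to 10204 with PBS and 14849.6, 16356 and 2527 with TNFα, IL1β and LPS, with 8, 5, 6 and 11 of them near background. CD3E, MS4A1 and ITGAM were near background on all 4 arrays. FCN1, a lectin of monocytes, was the only shared higher one of the 18, with 118 against 1439, 455 and 439.6. Without the LPS array 4 were higher, with PTPRC, FCGR3A and CYBB in addition, against 149 of all 17185 genes. The 14 heart muscle markers summed to 40245 with PBS and 52449, 60189 and 15513 with TNFα, IL1β and LPS. The cardiac myosin MYH6 had 9470, 14709, 17101 and 81.3 in that order, at odds with the label of an oesophageal line on the first 3 arrays. No heart muscle, fibroblast or endothelial marker was shared in either direction, but only 9 of 14, 3 of 12 and 2 of 10 were among the genes tested. Lists of this size without a member are near the share over all genes (0.48% higher and 0.63% lower). The 12 fibroblast markers summed to between 3317 and 4876, and the 10 endothelial markers to between 1179 and 1571. The part of these cell type markers in the shared differences was not tested. Without the marker genes of the other cell types 82 higher and 108 lower genes were counted, as FCN1 was the only called one among them. Genes of these cell types outside the lists were not left out.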

How the data were processed

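Total RNA of the 4 conditions was copied to cDNA, labelled by the NimbleGen one-colour method and put on 1 array each, per the labels' protocols. The authors deposited a linear RMA intensity for every probe set (usually 3 probes), per the file headers and names. Its software is not given in the sources used here. RMA usually equalises distributions, so a difference is relative to most genes. The series value table held identical intensities for all 45033 probe sets.

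Probe sets were matched by transcript accession, without version, to RefSeq symbols (GRCh38.p14): 18866 (41.9%) matched 1 symbol, 26167 did not. A value under 2 times the random control set (5000 probes; 54.1 to 56.4) was near background, and folds against it are bounds. Differences are log2 treated minus PBS.

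The members, the 30 lists (25 pathways, 5 cell types) and rules were chosen with earlier results of these data known; 5 further lists, named as such, were formed after the values were seen. Genes named are the 15 leading each way whose probe sets all had that sign, without uncharacterised symbols, up to 4 called members a list, 12 fixed inflammatory genes, and others said to be chosen afterwards or given as neighbours, limits or markers. The rule's values for 3 genes are not reported here. Tools were pandas 2.3.3 and numpy 2.4.6 in Python 3.11.15, with statsmodels 0.14.6 for loess and matplotlib 3.10.9 for figures.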

Additional observations from a re-analysis of the deposited data

Results flagged for a closer look

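Probe sets without a gene symbol are outside the comparison above. Of 26167 such sets 13243 were tested, and 80 (0.60%) were shared higher and 131 (0.99%) shared lower by the same rule, against 87 (0.89%) and 117 (1.20%) of 9726 tested sets with a symbol. They are given because they hold signal that the named genes leave out.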

How the results depend on the processing

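Main counts were 83 higher and 108 lower genes. They were 127 and 165 with no floor, 46 and 47 with the floor at the 75th percentile, 207 and 274 at 1.5-fold, 37 and 45 at 3-fold, 144 and 243 with the mean of the 3 differences, 167 and 248 over all probe sets, and 149 and 171 without the LPS array. Without the TNFα array they were 110 and 135, and without the IL1β array 110 and 147. Loess centring gave 84 and 105, repeated quantile normalization 86 and 105, and an offset of 50.9 before log2 66 and 88. The identical series value table gave 83 and 108. Leaving out marker genes of other cell types (82 and 108) could remove only FCN1, the only called one. Averaging a gene's probe sets gave 77 and 102. It can change only genes with several sets, 7 of the 83 and 10 of the 108. With averaging, 77 of the 83 and 99 of the 108 were still called. The settings from loess centring to averaging moved the counts by less than 1.5 times. Of 63 named genes that were called, 62 kept their direction with the mean of all probe sets, which can change only genes with several sets. The exception was PSMB8, whose smallest difference became -0.11. All 63 kept their direction with loess centring and with repeated quantile normalization. The offset, the identical series value table and leaving out an array cannot reverse a shared direction, so these settings could not check it. With the offset 58 of the 63 were still 2-fold different, and with the mean of probe sets 60. Of the 63 only ABHD12B, AIF1, HIF1A, IL32 and PSMB8 have several sets, so the mean could not change the others. With the mean, ABHD12B (-1.88) and AIF1 (1.62) stayed 2-fold different, and HIF1A (0.94), IL32 (0.75) and PSMB8 did not. No paired analysis was possible because each condition has 1 array and the result comes from no test. With 1 array per condition, the number of arrays limits the precision, and values near the random control set have only bounds.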
